A study of Mus musculus with 4 samples.

Results

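The genes described here are Igfbp1 and 6 other genes of the hepatic insulin-like growth factor (IGF) axis, which are Igfbp2, Igfbp3, Igfbp4, Igf1, Igfals and Ghr. They were taken by name, with every probe set that the platform annotation assigns to one of them, and they make up 7 of the 8251 genes and 14 of the 12422 non-control probe sets on the array. The set was chosen by the measured genotype ratios of Igfbp1 on these arrays, so its values are given as a description, with no test. Liver RNA of female mice aged 8 months, killed in the fed state, was hybridised to 4 Affymetrix MG_U74Av2 arrays, 1 for each combination of genotype and diet. The groups were HSL-null on a high-fat diet (FD, 58% of energy from fat), HSL-null on a normal diet (ND, 11% of energy from fat), wild type on FD and wild type on ND, with the diets fed for 6 months. HSL-null mice carry a general knockout of hormone-sensitive lipase, the enzyme encoded by Lipe that hydrolyses stored acylglycerols, and the study asked how its loss affects liver metabolism. Each array carried 1 pool, of 4 livers for HSL-null on FD and of 6 livers in each of the other groups. No source used here names the strain. With 1 array per group there is no spread between animals, no test and no p-value, and "higher" and "lower" describe these 4 pools.

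Growth hormone acts on hepatocytes through its receptor, the product of Ghr, and switches on Igf1 and Igfals. IGF-1 then circulates in a ternary complex with IGFBP-3 and the acid-labile subunit, the product of Igfals, while IGFBP-1, IGFBP-2 and IGFBP-4 bind IGFs in smaller complexes. Igfbp1 is known as the acutely regulated member of the family in liver, since insulin represses its transcription within hours and fasting, glucocorticoids, amino acid shortage and hypoxia raise it.

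Sequence before the annotated start is shown for 3 members, Igfbp1, whose signal differed with genotype, Igfbp2, whose signal differed with diet, and Igfbp3, the neighbour of Igfbp1 on chromosome 11 with 0 protein-coding genes between them. The sequences are the 250 bases before the start in RefSeq on GRCm38.p6, at chr11:7197537-7197786 (plus strand) for Igfbp1, chr1:72824230-72824479 (plus strand) for the most upstream annotated start of Igfbp2, and chr11:7213924-7214173 (minus strand) for Igfbp3. Capitals mark CAAAACA, a core of the insulin response element described for the human and rat genes and bound by FOXO factors, and ATTAAC or its complement GTTAAT, a core of the binding site of the hepatocyte factor HNF1.
Igfbp1: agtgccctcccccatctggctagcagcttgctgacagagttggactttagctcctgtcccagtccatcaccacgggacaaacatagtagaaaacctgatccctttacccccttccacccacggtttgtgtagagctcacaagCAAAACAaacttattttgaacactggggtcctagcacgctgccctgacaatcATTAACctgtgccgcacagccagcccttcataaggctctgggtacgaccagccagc
Igfbp2: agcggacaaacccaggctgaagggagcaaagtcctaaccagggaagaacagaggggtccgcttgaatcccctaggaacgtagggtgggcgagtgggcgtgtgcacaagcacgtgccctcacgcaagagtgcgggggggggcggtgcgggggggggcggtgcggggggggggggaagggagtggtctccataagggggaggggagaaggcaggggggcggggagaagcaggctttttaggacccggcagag
Igfbp3: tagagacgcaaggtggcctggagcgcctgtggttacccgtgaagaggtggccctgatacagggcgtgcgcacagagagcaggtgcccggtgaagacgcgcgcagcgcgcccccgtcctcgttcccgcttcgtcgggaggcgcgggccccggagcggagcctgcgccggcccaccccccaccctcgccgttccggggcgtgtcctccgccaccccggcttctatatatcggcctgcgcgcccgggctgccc

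In the Igfbp1 window CAAAACA lay 108 to 102 bases before the start and ATTAAC 56 to 51 bases before it. On either strand, CAAAACA was found in 5.56% and ATTAAC in 6.43% of the 32851 windows of this length in the table. RefSeq had 11 such windows for the 7 members, and neither motif was in any of the other 10. AAACA, which overlaps CAAAACA, matched 2 times in the Igfbp1 window and is found in 46.4% of all windows. ACGTG, the core bound by hypoxia-inducible factors, had 0 matches in the Igfbp1 window and 2 overlapping ones in the Igfbp2 window shown, against 16.6% of all windows with a match. The Igfbp1 window had a GC content of 53.2%, close to the 52.4% median of all windows, while the Igfbp2 window shown had 67.2% and the Igfbp3 window 73.2%. These are matches of letters and do not show binding.

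The arrays had been scaled by the authors to a common mean, and their median signal over non-control probe sets was 28.3 and 25.4 in HSL-null liver (FD, ND), against 25.2 and 27.8 in wild-type liver (FD, ND). Signals under 6.1, the 25th percentile of all values, were raised to that floor before log2 was taken, and a probe set passed the filter if its signal averaged 26.9 or more over the arrays. This left 4829 genes, each read by its brightest probe set, and all 7 members were among them. Disagreement between the probe sets of a gene gave an SD of 0.298 for a log2 ratio, which leaves out error shared by a whole array and the spread between animals. Lipe had signals of 15.9 and 11.9 in HSL-null on FD and ND, against 34.0 and 28.0 in wild type on FD and ND, and did not pass the filter. All 12 hepatocyte markers on the array passed the filter, with summed signals from 31857 to 42211. The 7 exocrine pancreas markers summed to 383.8 and 330.5 in HSL-null liver (FD, ND), against 341.0 and 967.8 in wild-type liver (FD, ND), so the last of these arrays stands apart. The ratios on FD do not use that array. The run settings gave 1 chip lot and 1 scan day, but each genotype had its own solution lot. That lot and genotype cannot be told apart in any genotype ratio. Each array was also run on its own fluidics module, 4 in all.

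Igfbp1 was several-fold higher without HSL on either diet. The probe set read 1734.1 and 1648.5 in HSL-null liver (FD, ND), against 270.8 and 419.7 in wild-type liver (FD, ND). Both HSL-null arrays lay above both wild-type arrays, and the signals were near each other on the 2 diets in HSL-null liver but lower on FD in wild type. HSL-null exceeded wild type 6.4-fold on FD, a log2 ratio of 2.68, and 3.93-fold on ND, a log2 ratio of 1.97. In each comparison Igfbp1 had rank 2 from the highest among the 4829 genes, of which 1.86% were 2-fold or more higher on FD and 0.497% on ND. On both diets together, 0.0621% of the genes were 2-fold or more higher, which is 3 genes, Igfbp1, Gpcpd1 and Klf2. No other kept gene reached a log2 ratio of 1.97 on both diets (0 of the rest). The difference between the 2 log2 ratios, FD minus ND, was 0.71 and was not tested, as there are no replicates. Over the 2 diets, which are not replicates of each other, the genotype log2 ratio averaged 2.33 ± 0.50 (SD, n = 2 diets).

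**Figure D1:**
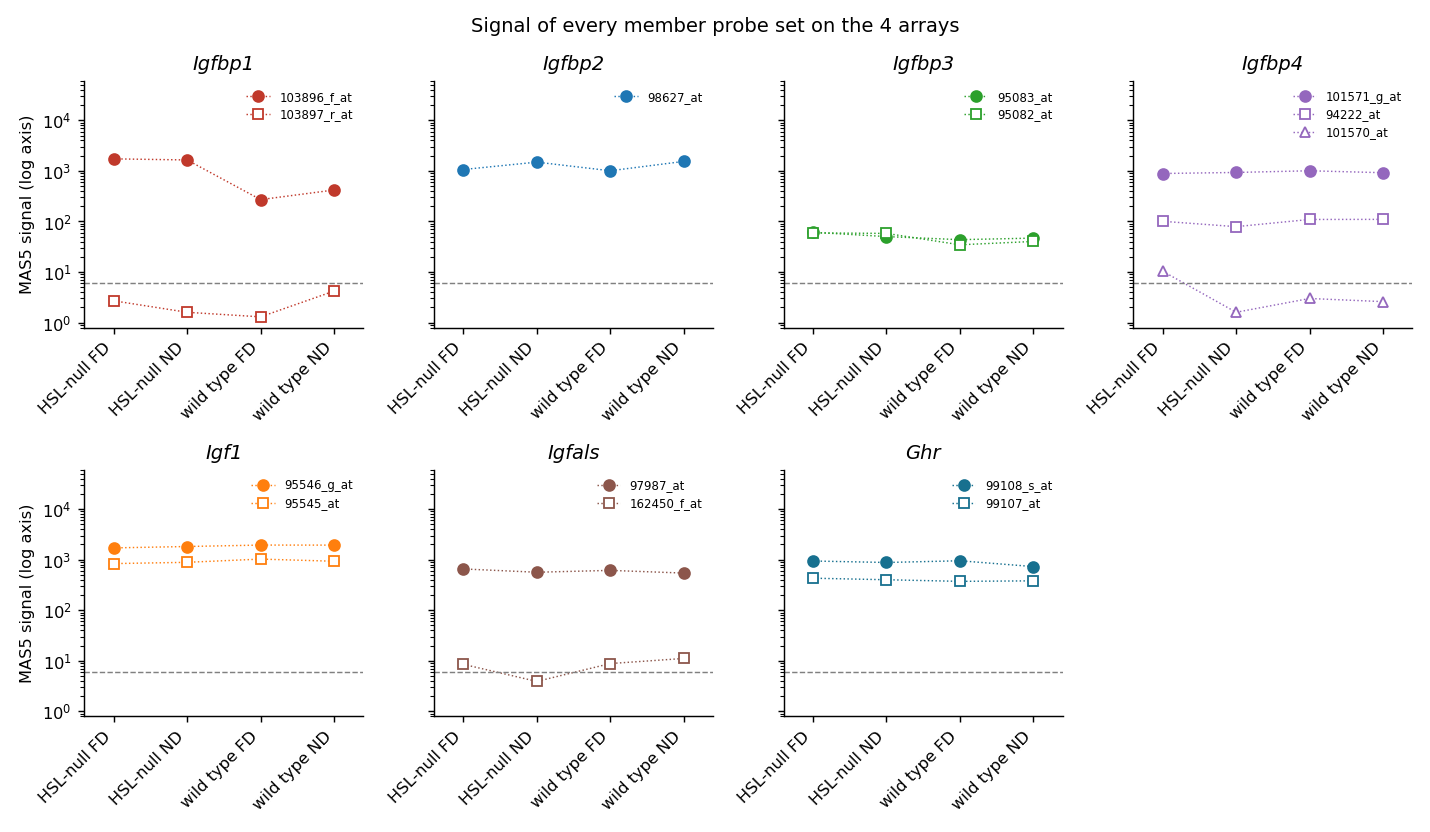
Signal of the 14 member probe sets (log axis) on the 4 arrays, 1 panel per gene and 1 point per array, with the brightest probe set filled and the floor of 6.1 dashed. The Igfbp1 probe set read 1734.1 and 1648.5 in HSL-null liver on FD and ND and 270.8 and 419.7 in wild type on FD and ND, while no brightest probe set of the other genes differed 2-fold between genotypes.

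The Igfbp1 values come from a single probe set, 103896_f_at, built on accession X81579. The suffix _f marks, in the naming of these early arrays, a probe set whose probes may match several members of a sequence family. A companion probe set on the same accession, 103897_r_at, whose suffix marks relaxed rules of probe choice, had signals of 2.7 and 1.6 in HSL-null on FD and ND and of 1.3 and 4.2 in wild type on FD and ND. All 4 lie under the floor, so it gives no ratio, and the difference in Igfbp1 has no support from another probe set of the gene. Among the 517 kept probe sets with the suffix _f, 3.68% were 2-fold or more higher in HSL-null liver on FD and 0.774% on ND, against 1.59% and 0.338% of the 5026 without a suffix. The Igfbp1 probe set was the only 1 of the 517 that was 2-fold or more higher on both diets, which is 0.193% of them. As Igfbp1 was chosen by these ratios, that count cannot show what its probes match. None of the other kept probe sets of IGF-binding protein genes showed a difference of this size.

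Igfbp2 encodes the IGF-binding protein that is abundant in fetal and adult liver and is known to be raised by fasting and by leptin. It read 1066.5 and 1493.4 in HSL-null liver (FD, ND), against 1008.5 and 1543.0 in wild-type liver (FD, ND). Both FD arrays lay below both ND arrays, with little between the genotypes. The FD to ND log2 ratio was -0.49 in HSL-null and -0.61 in wild type, or 1.40-fold and 1.53-fold lower on FD. Both ratios exceed the SD between probe sets of 0.298, in a pair of comparisons that share no array. Igfbp2 was the 1 member past that SD in the same direction in both genotypes, as were 5.98% of all kept genes, of which the lower ones made 2.48% of the total, and 0.890% had a log2 ratio of -0.49 or lower in both. Hepatocyte markers were lower on FD too, with a median FD to ND log2 ratio of -0.17 in HSL-null, where 9 of 12 were below 0, and -0.41 in wild type, where 12 of 12 were. Their summed signals were 32668 and 36284 in HSL-null (FD, ND), against 31857 and 42211 in wild type (FD, ND), and their part in the Igfbp2 ratios was not tested. The HSL-null to wild-type log2 ratios of Igfbp2 were 0.081 on FD and -0.047 on ND, both within the SD. Igfbp2 has 1 probe set on the array, so no other reading of it was available.

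Igfbp3 encodes the main carrier of IGF-1 in plasma, which in rat liver is made by non-parenchymal cells rather than by hepatocytes. Its probe set 95083_at had signals of 61.2 and 50.3 in HSL-null on FD and ND, against 43.7 and 46.9 in wild type on FD and ND. The other, 95082_at, had 59.5 and 58.1 in HSL-null, against 34.6 and 40.3 in wild type, again on FD and ND. On both probe sets the HSL-null arrays lay above the wild-type arrays. The HSL-null to wild-type log2 ratios were 0.49 on FD and 0.10 on ND at 95083_at, and 0.78 and 0.53 at 95082_at. None of these reached 2-fold, and the ND ratio at 95083_at is within the SD between probe sets. By brightest probe set, Igfbp1 was the 1 member past the SD in the same direction on both diets, as were 5.9% of the kept genes, and 3.52% were so with higher values, as at 95082_at. Markers of other liver cells were measured beside it, since in whole liver a different number of cells of a type and a different RNA content per cell cannot be told apart. Sinusoidal endothelial markers, 11 of 14 on the array kept, summed to 1270.9 and 1354.4 in HSL-null on FD and ND and 1421.8 and 1415.3 in wild type on FD and ND. Eng makes up a large share of these sums, and over the 11 genes the median genotype log2 ratio was 0.052 on FD and 0.099 on ND, with 6 of 11 above 0 on each diet. Kupffer cell and macrophage markers, 13 of 14 kept, summed to 3904.4 and 4128.1 in HSL-null and 3047.0 and 4387.3 in wild type. On FD 13 of 13 were higher in HSL-null, with a median of 0.31 against 0.067 over all kept genes. On ND 4 of 13 were higher, with a median of -0.094. Stellate cell markers, 8 of 12 kept, summed to 2065.9 and 2048.4 in HSL-null and 1665.7 and 2023.7 in wild type. On FD 7 of 8 stellate cell markers were higher in HSL-null, with a median of 0.57. Of these 1, Pdgfra, was past 2-fold at 1.29, where 1.86% of all kept genes were higher by that much. On ND 3 of 8 were above 0 with a median of -0.13. None of the markers on the array in these 3 lists was at the floor on all 4 arrays. The part of these cells in the Igfbp3 ratios was not tested.

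Igfbp4 encodes a binding protein that mostly holds IGFs away from their receptor. At 101571_g_at, whose suffix marks probes in common with another probe set, its signal was 889.6 and 933.1 in HSL-null on FD and ND and 1007.1 and 922.4 in wild type on FD and ND. The 4 values differed little, with HSL-null to wild-type log2 ratios of -0.18 on FD and 0.017 on ND. At 94222_at the signals were 100.9 and 79.0 in HSL-null and 109.7 and 110.2 in wild type, with log2 ratios of -0.12 on FD and -0.48 on ND. The probe sets thus differ on ND, where 1 gives a level value and the other a lower one in HSL-null. A probe set on the same accession as 101571_g_at, 101570_at, was under the floor on 3 of 4 arrays and read 10.4 in HSL-null on FD.

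Igf1, the gene of the growth hormone-driven circulating growth factor, was nearly level. Its signal at 95546_g_at was 1707.3 and 1817.6 in HSL-null on FD and ND, against 1941.1 and 1937.0 in wild type on FD and ND. At 95545_at it was 834.8 and 884.9 in HSL-null, against 1025.0 and 929.3 in wild type. These 2 probe sets were built on the same accession and may share probes, so they are not independent readings. On both probe sets the HSL-null arrays read below the wild-type arrays, by log2 ratios of -0.19 and -0.30 on FD and of -0.092 and -0.071 on ND, but with median scaling of the arrays 95546_g_at had -0.35 on FD and 0.039 on ND. Without that scaling all 4 ratios were within the SD of 0.298 between probe sets, and 59.5% of the kept genes had an FD ratio at least as far from 0 as that of 95546_g_at.

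Igfals, which encodes the acid-labile subunit, had signals of 654.4 and 563.0 in HSL-null on FD and ND and 612.9 and 542.2 in wild type on FD and ND. Its genotype log2 ratios were 0.094 on FD and 0.054 on ND, and those of FD to ND were 0.22 in HSL-null and 0.18 in wild type, all within the SD. Its other probe set, 162450_f_at, read between 3.9 and 11.1 and was under the filter. Ghr had signals at 99108_s_at of 939.7 and 878.3 in HSL-null on FD and ND, against 949.7 and 728.6 in wild type on FD and ND. The wild-type ND array was the lowest there, so the HSL-null to wild-type log2 ratio was 0.27 on ND and -0.015 on FD, and the FD to ND ratio 0.38 in wild type and 0.097 in HSL-null. At 99107_at the signals were 429.4 and 400.2 in HSL-null and 371.8 and 380.6 in wild type, and the FD to ND ratio in wild type was -0.034. The low value of wild type on ND at 99108_s_at was therefore not seen at the other probe set of Ghr.

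**Figure D2:**
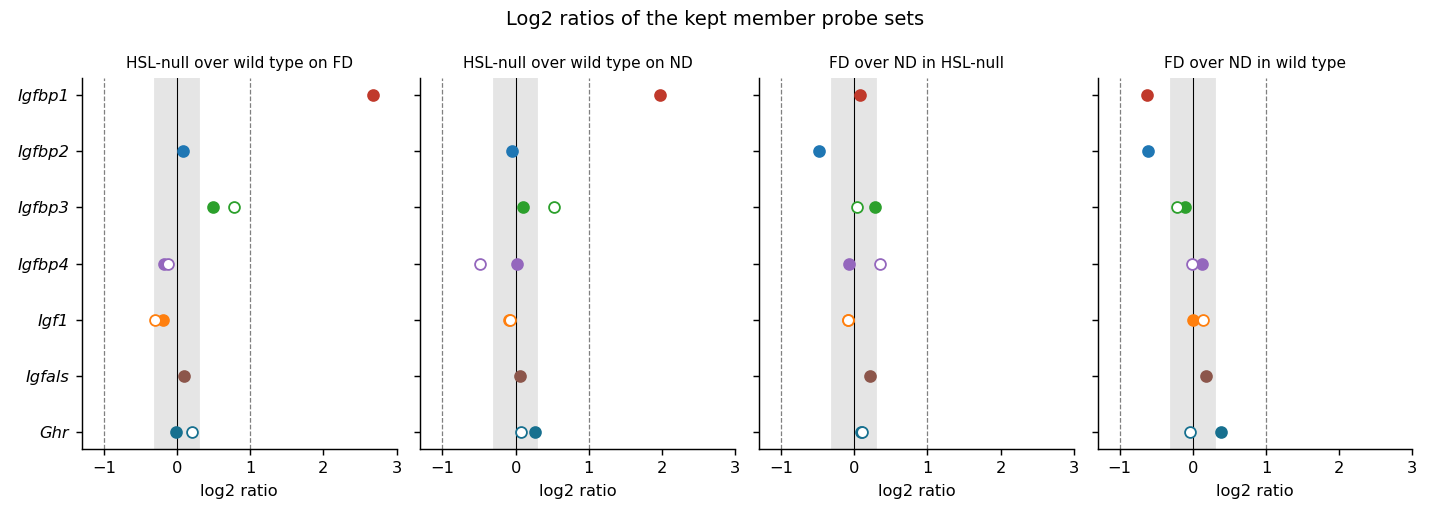
Log2 ratios of the 11 kept member probe sets in the 4 comparisons, with the brightest probe set of each gene filled, the others open, the SD of 0.298 between probe sets shaded and 2-fold dashed. Igfbp1 lies at 2.68 on FD and 1.97 on ND in the genotype comparisons, and Igfbp2 at -0.49 and -0.61 in the diet comparisons.

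Across the 7 members, Igfbp1 was thus the 1 gene 2-fold or more different between genotypes on either diet, where 2.82% of kept genes passed that fold on FD and 1.57% on ND. Between FD and ND, 0 of 7 passed it in either genotype, where 1.45% of kept genes did so in HSL-null and 3.15% in wild type (0.828% and 0.787% with higher values on FD). In 5 of 7 members the brightest probe set had genotype ratios within the SD on both diets, as in 44.8% of all kept genes, and in 3 of 7, Igfbp4, Igf1 and Igfals, all 4 ratios were within it, as in 31.7%. The genotype ratios on ND share the wild-type ND array with the diet ratios in wild type, and each FD array likewise enters 2 comparisons. Igfbp1 itself had an FD to ND log2 ratio of 0.073 in HSL-null and -0.63 in wild type, where 11.6% of the kept genes lay at least as far from 0.

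**Figure D3:**
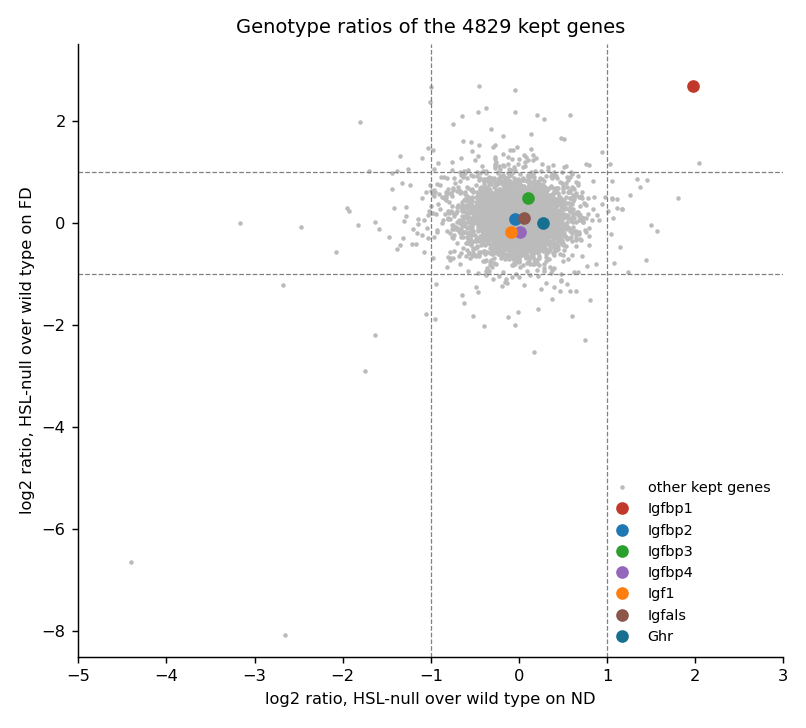
Genotype log2 ratio (HSL-null over wild type) on FD (vertical) against that on ND (horizontal) for the 4829 kept genes, with the 7 members in colour and 2-fold dashed. Igfbp1, which was chosen by these ratios and has rank 2 from the highest in each, lies at 1.97 and 2.68. The other 6 members lie inside the main cloud.

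The genes whose profile lay nearest to that of Igfbp1 were found by the Euclidean distance between log2 signals centred on each gene's mean over the 4 arrays, among 4819 genes above the floor on all arrays. They were Gpcpd1 at a distance of 1.09, Cyb561 at 1.21, Emp1 at 1.28, Arntl at 1.29 and Klf2 at 1.31, where a gene with the same value on every array would lie at 2.37. Gpcpd1, which encodes a glycerophosphocholine phosphodiesterase, had signals of 49.0 and 71.2 in HSL-null on FD and ND, against 21.9 and 17.3 in wild type on FD and ND. These come from a probe set of relaxed rules (suffix _r). The other Gpcpd1 probe set, under the filter, read 4.8 and 2.4 in HSL-null on FD and ND, against 2.9 and 10.1 in wild type. Only the last of these is above the floor, so it gives no usable ratio. Cyb561, which encodes an electron-transporting cytochrome, had genotype log2 ratios of 1.39 on FD and 0.94 on ND, but its other kept probe set had -0.25 and -0.47. Emp1, an epithelial membrane protein gene, had 1.66 on FD and 0.48 on ND, and Arntl, which encodes the clock factor BMAL1, had 1.65 and 0.51. Klf2, a transcription factor gene of endothelial cells among others, had 1.15 and 1.03. All of these are at signals of 71.2 or lower on the 4 arrays, and with 4 arrays many genes can share such a profile.

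**Figure D4:**
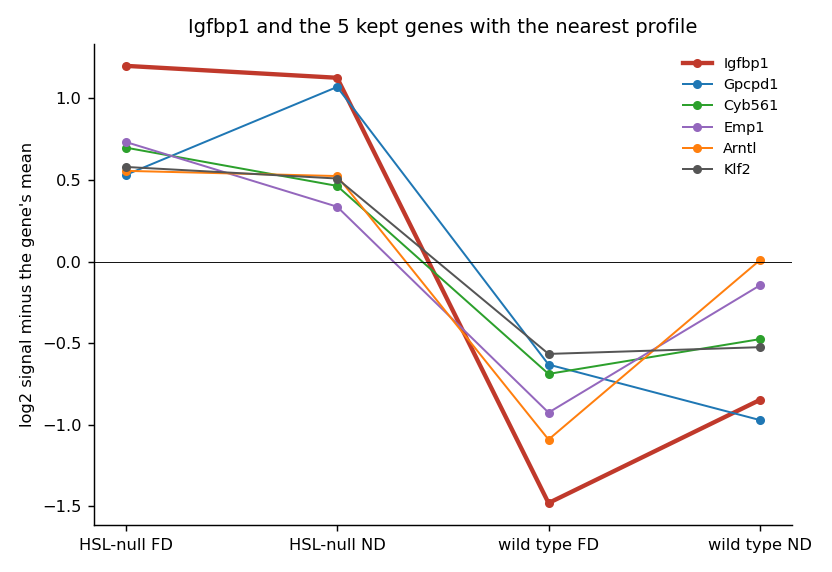
Log2 signal minus the gene's own mean over the 4 arrays for Igfbp1 (thick line) and the 5 kept genes nearest to it; the lines only join the points of a gene. All 6 genes lie above their mean on both HSL-null arrays, and Igfbp1 spans the widest range.

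Few other genes of the axis passed the filter. Of 16 further ligands, receptors, binding proteins and adaptors listed, 13 were on the array and 4 passed the filter, with a median genotype log2 ratio of 0.032 on FD and -0.024 on ND, against 0.067 and -0.018 over all kept genes. Igf1r, which encodes the IGF-1 receptor, had signals of 31.6 and 24.6 in HSL-null on FD and ND, against 30.5 and 52.0 in wild type on FD and ND, and it was the 1 gene of the list 2-fold or more lower on ND (log2 ratio -1.08), where 1.08% of kept genes were. Its value in wild type on ND stands above the other 3. Igf2r, the receptor that clears IGF-2, had 0.27 on FD and 0.090 on ND, and Irs2, an adaptor of the insulin receptor, -0.056 and -0.14. Shc1, an adaptor gene, had 0.013 on FD and 0.088 on ND. Insr, Igf2, Igfbp6 and Igfbp7 were under the filter. IGFBP proteases and their inhibitors had 8 of 16 genes kept, with medians of -0.0051 on FD and 0.029 on ND. Of these, 0 were 2-fold different between genotypes, where 2.82% of kept genes were on FD and 1.57% on ND. Htra1, a serine protease that cleaves IGF-binding proteins, had -0.19 on FD and 0.028 on ND.

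Components of growth hormone signalling had medians of opposite sign on the 2 diets. No gene was past 2-fold (0 of 11 kept on either diet), where 2.82% of all kept genes were on FD and 1.57% on ND. The median genotype log2 ratio was 0.26 on FD, with 10 of 11 above 0, and -0.26 on ND, with 9 of 11 below 0. Over all kept genes the medians were 0.067 and -0.018, of the same signs. With median scaling of the arrays the list had 0.097 on FD and -0.13 on ND. Stat3, a transcription factor of cytokine signalling, had 0.80 on FD and -0.15 on ND, and Sirpa, a membrane glycoprotein that is also a macrophage marker, 0.49 and -0.40. Cish, a feedback inhibitor induced through STAT5, went the other way from most on FD, with signals of 46.2 and 51.1 in HSL-null on FD and ND, against 69.1 and 87.7 in wild type on FD and ND. Both HSL-null arrays were below both wild-type arrays for Cish, with log2 ratios of -0.58 on FD and -0.78 on ND. Socs2, another STAT5-induced inhibitor, had 0.15 on FD and 0.13 on ND. Liver genes with a sex-biased level under growth hormone were measured too. Of 6 kept female-type genes, 3 were 2-fold or more lower and 1 higher on FD, and 2 lower and 1 higher on ND. Among all kept genes 0.953% and 1.08% were lower and 1.86% and 0.497% higher. Lepr was the higher gene on FD, at 1.18, with a wild-type FD signal of 7.5 near the floor, and had -0.76 on ND. Sult3a1 was the higher gene on ND, at 1.44, and had -0.73 on FD. Cyp2b9, a female-type cytochrome P450 gene with close paralogs, had signals of 2.1 and 165.7 in HSL-null liver (FD, ND), against 1632.5 and 1045.7 in wild-type liver (FD, ND). Cyp2b13, its paralog, had 1.3 and 3.2 in HSL-null liver (FD, ND), both under the floor, against 610.0 and 129.1 in wild-type liver (FD, ND), so it passed the filter through wild type alone. These are the 2 female-type genes past 2-fold lower on ND, and in RefSeq (GRCm38.p6) they lie on chromosome 7 like Lipe, 0.775 and 0.663 Mb from it. The part of that position in their ratios was not tested. Of 8 male-type genes 0 passed 2-fold on either diet, where 2.82% of kept genes did on FD and 1.57% on ND. Egfr was the farthest from 0 at 0.95 on FD and 0.60 on ND.

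Genes that respond to the known regulators of Igfbp1 were compared by lists, some of which share genes. Among fasting and FOXO1 targets that insulin represses, 11 were kept and their median genotype log2 ratio was 0.33 on FD and -0.14 on ND. On FD 7 were above 0 and 4 below, down to -0.55, and on ND 5 were above and 6 below. Foxa2 and Foxo3, both transcription factor genes, were the lowest on FD at -0.55 and -0.50. They were also below 0 on ND, at -0.19 and -0.33. G6pc, the catalytic subunit of glucose-6-phosphatase and a FOXO1 target like Igfbp1, had signals of 1288.2 and 1348.0 in HSL-null on FD and ND, against 717.6 and 1285.6 in wild type on FD and ND. Wild type on FD was the low value, so that G6pc had 0.84 on FD and 0.068 on ND. Pck1, which encodes the gluconeogenic phosphoenolpyruvate carboxykinase, had 0.40 on FD and 0.25 on ND. Ppp1r3c, whose product brings a phosphatase to glycogen, had 1.14 on FD and 0.76 on ND. It was the 1 gene of this list 2-fold or more higher on FD, where 1.86% of all kept genes were. Pdk4, which encodes a kinase that inhibits pyruvate dehydrogenase, had 0.33 on FD and 0.70 on ND, while Irs2 had the values given above. Gadd45a and Gadd45b, stress-induced growth arrest genes, had 0.64 and 0.89 on FD but -0.68 and -0.63 on ND, and Bcl6, a transcriptional repressor gene, had -0.018 on FD and -0.54 on ND. On ND, 0 of the 11 were 2-fold different, where 1.57% of all kept genes were.

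Insulin-induced genes, 9 kept, had a median genotype log2 ratio of -0.59 on FD and 0.0084 on ND. On FD 7 of 9 were below 0 and 2 above, among them Elovl6 at 0.62. Thrsp, a regulator of lipogenesis, at -1.26 was the 1 that was 2-fold or more lower, where 0.953% of kept genes were. The FD to ND median of the 9 genes was -1.02 in HSL-null, with 5 of 9 2-fold or more lower where 0.621% of kept genes were. In wild type that median was -0.076, with 1 of 9 where 2.36% were. Me1, which encodes malic enzyme, had signals of 236.4 and 580.0 in HSL-null on FD and ND, against 430.9 and 454.1 in wild type on FD and ND. Acly, which encodes ATP citrate lyase, had 459.4 and 1104.8 in HSL-null, against 699.9 and 798.6 in wild type. HSL-null on FD was the lowest of the 4 arrays for both genes, and HSL-null on ND the highest. Igfbp1 read 1734.1 and 1648.5 on the same 2 arrays, and a link between these genes and Igfbp1 was not tested.

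Among glucocorticoid-responsive genes, 13 kept, medians were 0.0041 on FD and 0.094 on ND. The metallothionein genes Mt1 and Mt2 had 0.99 and 1.1 on FD and 0.49 and 0.51 on ND, Per1, a clock repressor, had -1.89 and -0.95, and Tat, the tyrosine aminotransferase gene that glucocorticoids induce, had 0.0041 and 0.094. Genes of ATF4 and the integrated stress response, 10 kept, had medians of 0.26 on FD and -0.23 on ND, or 0.097 and -0.096 with median scaling. Of them 0 were past 2-fold, where 2.82% of kept genes were on FD and 1.57% on ND. Asns, the asparagine synthetase gene, had 0.98 on FD and -0.61 on ND. Atf4 itself had 0.33 on FD and -0.42 on ND. Hypoxia-induced genes, 12 kept, had medians of 0.051 on FD and -0.063 on ND. Among them Ddit4, an inhibitor of mTORC1 that stress and glucocorticoids also raise, had signals of 122.1 and 92.4 in HSL-null on FD and ND, against 69.7 and 44.5 in wild type on FD and ND, with log2 ratios of 0.81 and 1.05. It was the 1 gene of that list 2-fold or more higher on ND, where 0.497% of all kept genes were. Vegfa, which encodes an angiogenic factor, had 0.42 on FD and -0.65 on ND. PPARA targets, 15 kept, had medians of -0.062 on FD and -0.024 on ND, with Acot1, an acyl-CoA thioesterase gene, at -1.18 on FD and -0.14 on ND. No kept gene of the 11 lists was 2-fold or more higher on both diets (0 genes), where 0.0621% of all kept genes were. That share is so small that the count of 0 says little about the lists.

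**Figure D5:**
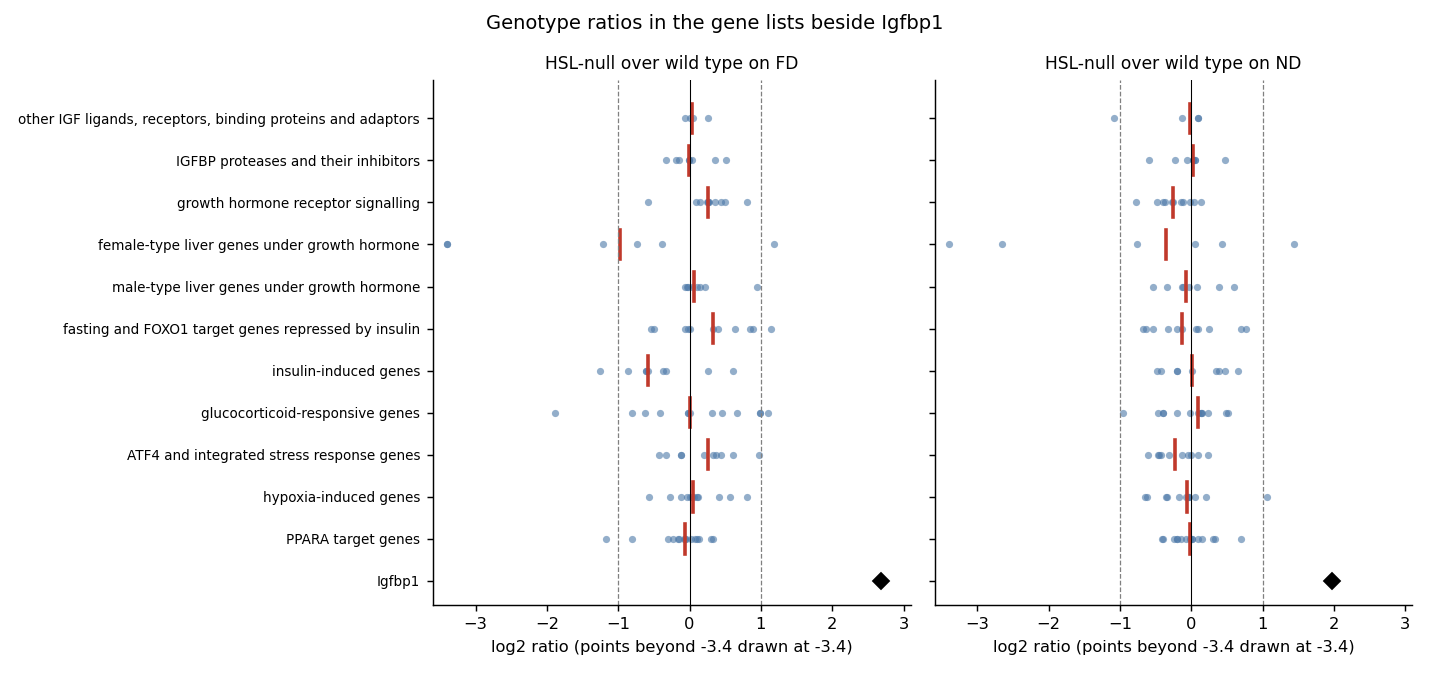
Genotype log2 ratio (HSL-null over wild type) for the kept genes of 11 lists (blue points), with the median of each list in red, on FD at the left and on ND at the right; 2-fold is dashed. Igfbp1 (black diamond) lies at 2.68 and 1.97, to the right of every listed gene, and the median of the insulin-induced genes lies at -0.59 on FD and 0.0084 on ND.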

How the data were processed

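Values deposited by the authors are linear intensities, and MAS5, with no version, is named per the submitters' processing notes. The 2% trimmed means lay between 100.085 and 100.094, so each array had been scaled before deposit. Genome build and detection calls are not given in the sources used here. Of 12422 non-control probe sets, 10833 had 1 gene in the platform annotation and 396 several, which were not named. Signals were raised to the floor, put on a log2 scale and filtered with Python 3.11.15 and pandas 2.3.3. The SD between probe sets came from the 2 brightest kept probe sets of 687 genes, and it is the root mean square over the 4 comparisons. Some of these pairs, such as that of Igf1, were built on the same accession and may share probes. No test was run, as each group had 1 array. The calculation was tested on simulated data. Genes were drawn by 1 rule, and not all that it gives are described: the members, Lipe, the 5 nearest profiles, and from each list its centre gene and the up to 3 genes with the largest genotype ratio on each diet. Igf2, Igfbp6 and Igfbp7, as genes under the filter, and Shc1, Eng, Pdgfra, Lepr, Foxa2 and Foxo3 were named outside it, after their values were seen. The members and lists were chosen with earlier results of these data known. The 9 alternatives covered normalization (cyclic loess with limma 3.58.1), floor, filter and probe set. Promoter sequences are from RefSeq on GRCm38.p6, where all 7 members were matched by gene ID.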

Additional observations from a re-analysis of the deposited data

Results flagged for a closer look

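Some effects had opposite signs in the 2 groups set side by side and are listed where they lay more than 0.298 apart. That value is the SD of 1 log2 ratio of a single gene, not of a difference or a median, so it gives no error here, and no such difference was tested, as each group had 1 array. For Igfbp1 the FD to ND log2 ratio was 0.073 in HSL-null and -0.63 in wild type, a difference of 0.71, and for Igfbp3 it was 0.28 and -0.10, a difference of 0.38. With median scaling the opposite signs were lost, at -0.083 and -0.49 for Igfbp1 and 0.13 and 0.040 for Igfbp3 (HSL-null, wild type).

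The medians of several lists also had opposite signs. Growth hormone signalling had genotype ratios of 0.26 on FD and -0.26 on ND, a difference of 0.52, and diet ratios of 0.21 in HSL-null and -0.31 in wild type, also 0.52 apart. Female-type liver genes had FD to ND medians of -0.66 in HSL-null and 1.02 in wild type, a difference of -1.69. Fasting and FOXO1 targets had genotype medians of 0.33 on FD and -0.14 on ND, a difference of 0.46, and insulin-induced genes -0.59 and 0.0084, a difference of -0.59. ATF4 and stress response genes had 0.26 on FD and -0.23 on ND, 0.49 apart, and FD to ND medians of 0.18 in HSL-null and -0.20 in wild type, 0.38 apart. With median scaling several of these medians drew closer: on FD and ND the genotype medians were then 0.097 and -0.13 for growth hormone signalling, 0.16 and -0.0066 for FOXO1 targets and 0.097 and -0.096 for ATF4 genes, each pair under 0.298 apart. The FD to ND medians in HSL-null and wild type were 0.054 and -0.17 for growth hormone signalling and 0.022 and -0.060 for ATF4 genes, also under 0.298 apart. Insulin-induced genes had -0.75 on FD and 0.14 on ND, and female-type genes had -0.75 in HSL-null and 1.17 in wild type.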

How the results depend on the processing

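Over 8 alternatives the genotype log2 ratio of Igfbp1 was between 2.51 and 2.79 on FD and between 1.91 and 2.10 on ND. Those that raised the floor, changed the filter or averaged kept probe sets could not move it. Its 1 kept probe set lies well above each floor and filter. The ranges thus come from the normalizations and from a pseudocount used in place of the floor. The remaining alternative, probe sets without a suffix, holds no Igfbp1 probe set, so it gave no ratio, and the count of members past 2-fold was 0 there on FD and on ND, against 1. Of the 244 member ratios recomputed, 241 moved by less than the SD between probe sets, and the 3 others used probe sets without a suffix: Igfbp4 had -0.48 for genotype on ND and 0.35 for diet in HSL-null, and Ghr -0.034 for diet in wild type. The 241 include ratios that a raised floor or a changed filter could not move, since the brightest member probe sets lay above both floors. The Igfbp2 diet ratio stayed between -0.64 and -0.40 in HSL-null and between -0.61 and -0.47 in wild type. With median scaling the all-gene median moved by -0.17 (genotype on FD), 0.13 (genotype on ND), -0.16 (diet in HSL-null) and 0.14 (diet in wild type), and Igfbp2, Igfals and Ghr then had genotype ratios of -0.087, -0.073 and -0.18 on FD and Igfbp2, Igfals and Igf1 0.083, 0.18 and 0.039 on ND. Of 396 list medians, 5 moved by more than the SD: with no filter, female-type genes had -0.74 for genotype on ND, -0.32 for diet in HSL-null and 0.64 in wild type; FOXO1 targets had 0.0041 on FD under the stricter filter and glucocorticoid-responsive genes 0.31 on FD without suffix probe sets.

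Counts of all kept genes 2-fold or more different moved more. Genotype on FD (90 higher and 46 lower) gave 51 and 72 with median scaling, 58 and 58 with cyclic loess, 63 and 59 with quantile normalization, 35 and 28 with the pseudocount of 16, 277 and 142 with no filter, 37 and 30 with the stricter filter, and 52 higher with the floor at the median. Genotype on ND (24 and 52) gave 30 and 36 with median scaling, 27 and 40 with cyclic loess, 28 and 38 with quantile normalization, 9 and 19 with the pseudocount, 95 and 218 with no filter, 13 and 14 with the stricter filter, and 30 lower with the floor at the median. Diet in HSL-null (40 and 30) gave 22 and 48, 27 and 39, and 28 and 39 under the same 3 normalizations, 14 and 19 with the pseudocount, 187 and 103 with no filter, 15 higher with the stricter filter and 23 higher with the floor at the median. Diet in wild type (38 and 114) gave 61 and 74, 45 and 88, and 48 and 84, then 21 and 48, 144 and 336, and 27 and 49 with the pseudocount, no filter and the stricter filter. No paired analysis was possible because the groups share fewer than 2 replicate numbers, with 1 array each, and for the same reason no replicate could be left out.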
